A study of Mus musculus with 9 samples.

Results

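The TALE homeobox genes of the proximal limb were followed in single-cell RNA sequencing of mouse forelimb buds. They comprise 7 genes, namely Meis1, Meis2, Meis3, Pbx2, Pbx3, Irx3 and Irx5. They were taken by symbol from the gene table deposited with each library, and all 7 were found in every library among 32289 features. Forelimb buds were taken from untreated embryos at E10.75 (37 to 39 somites) of 3 genotypes, all bred on a Swiss Albino background. Wild-type (Wt) embryos carried intact alleles of Grem1, which codes for a secreted antagonist of BMP signalling. The 2 mutants, EC1CRM8Δ/Δ (E1C8Δ/Δ) and EC1CRM5Δ/Δ (E1C5Δ/Δ), were homozygous for germline deletions of limb bud enhancers of Grem1 and share the loss of EC1. These deletions were present in every cell of the embryo. Each of the 9 libraries came from the forelimb pair of 1 embryo, with 3 embryos per genotype.

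The libraries held 2571 to 28480 cell barcodes and 26620760 to 500559729 UMIs (unique molecular identifiers, which tag single captured RNA molecules). After filters, 604 to 9917 cells per library were left, with a median of 18179 to 49873 UMIs per cell. Pairs of libraries shared 0 to 28 barcodes, and at most 0.497% of those of the smaller library. Transcripts of Xist and of Y-linked genes gave the sex of each embryo. The 3 Wt embryos, E1C8Δ/Δ replicate 3 and E1C5Δ/Δ replicate 2 were male, and the other 4 mutants were female. Sex and genotype were therefore partly confounded. Among the males, 2 libraries also held Xist, Wt replicate 1 at 21.0 and E1C8Δ/Δ replicate 3 at 8.20 CPM (UMIs of the gene per 1000000 UMIs of the summed cells). Among the females, E1C8Δ/Δ replicate 1 also held Y-linked transcripts, at 2.49 CPM against 0.0160 to 0.0412 in the other females. That a library holds the cells of a single embryo is taken from the methods, and whether these libraries held cells of more than 1 embryo was not tested. Grem1 in mesenchyme was 43.7, 29.7 and 31.5 CPM in the Wt libraries, 11.2, 11.4 and 14.0 in E1C8Δ/Δ and 17.3, 15.9 and 24.9 in E1C5Δ/Δ, so all 6 mutant libraries lay below the 3 Wt libraries.

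TALE proteins are transcription factors whose homeodomain, the DNA-binding fold of homeobox genes, carries an extended loop between the first and the second helix. MEIS and PBX proteins bind DNA as partners of each other and of HOX proteins, whereas IRX proteins form the Iroquois family. In the early limb bud, Meis1 and Meis2 mark the proximal domain that will form the upper arm, where retinoic acid signalling is active, and Irx3 and Irx5 mark proximal and anterior mesenchyme.

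The loop and the recognition helix define the family, so the homeobox stretch that spans both is shown for all 7 genes, read from the coding exons of GENCODE M21 on GRCm38 (mm10). Each line gives 84 coding bases, 5′ to 3′ on the coding strand. The capitals at the start mark the 3 codons of the extended loop, and those at the end mark 4 codons of the recognition helix.
Meis1: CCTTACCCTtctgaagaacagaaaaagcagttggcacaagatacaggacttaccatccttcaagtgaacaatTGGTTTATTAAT
Meis2: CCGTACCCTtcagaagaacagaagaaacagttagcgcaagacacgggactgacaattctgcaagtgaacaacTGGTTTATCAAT
Meis3: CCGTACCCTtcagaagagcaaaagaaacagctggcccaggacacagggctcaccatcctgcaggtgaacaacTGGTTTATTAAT
Pbx2: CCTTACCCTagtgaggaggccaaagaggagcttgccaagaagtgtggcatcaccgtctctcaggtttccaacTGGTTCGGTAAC
Pbx3: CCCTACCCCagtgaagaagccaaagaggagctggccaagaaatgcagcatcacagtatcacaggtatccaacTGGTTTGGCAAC
Irx3: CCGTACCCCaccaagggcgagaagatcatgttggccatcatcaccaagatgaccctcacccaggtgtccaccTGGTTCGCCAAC
Irx5: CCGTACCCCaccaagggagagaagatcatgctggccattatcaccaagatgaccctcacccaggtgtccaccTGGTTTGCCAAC
The stretch lies in exons 9 and 10 of Meis1 (chr11:18885642-18905762, minus strand), Meis2 (chr2:115868794-115921745, minus) and Meis3 (chr7:16183794-16184047, plus), and in exons 5 and 6 of Pbx2 (chr17:34594655-34594821, plus) and Pbx3 (chr2:34178322-34204842, minus), with an intron inside. In Irx3 (chr8:91800526-91800609, minus) and Irx5 (chr8:92359702-92359785, plus) it lies within exon 2. Over the 189 bases of the whole homeobox, the Meis genes shared 82.0 to 84.7% of bases with each other, Pbx2 and Pbx3 shared 82.5%, and Irx3 and Irx5 shared 87.8%. Between the subfamilies the share was 45.5 to 53.4%. Irx3 and Irx5 lie on chromosome 8 in opposite directions, 556 kb apart.

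Dissociation of the buds removed the position of each cell, so position was read from marker genes that are not TALE genes. Mesenchymal cells were those with at least 3 UMIs of Prrx1, Prrx2, Pdgfra and Tbx5 together and fewer than 2 UMIs of any other lineage list, after each cell had been thinned to 10000 UMIs. They numbered 453 to 6406 per library and 34315 in all, and their Prrx1 level was 568 to 754 CPM, against 12.3 to 40.3 in erythroid cells. Cells with a UMI of Hoxa13 or Hoxd13, the genes of the future hand plate, were called distal. Cells with Hoxa11, a gene of the future forearm, but no Hoxa13 or Hoxd13 were called middle. Cells with Rarb or Pkdcc and none of the 3 Hox genes were called proximal. These gates took 15424 proximal, 9783 middle and 5542 distal cells. The UMIs of the cells of each gate were summed per library and are given as CPM. The kit counts transcript ends, so levels were compared between gates and genotypes and not between genes.

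In Wt forelimb buds, Irx3, Irx5, Meis1 and Meis2 were sharply higher in proximal than in distal mesenchyme, Pbx3 and, with these gates, Meis3 less so, and Pbx2 was close to even. These gates pool anterior and posterior cells, which are set apart further below. Irx3 stood at 105, 109.8 and 104 CPM in the proximal gate of the 3 Wt libraries, 12.7, 18.9 and 22.3 in the middle gate and 7.69, 17.0 and 13.7 in the distal gate. Irx5 stood at 58.7, 63.5 and 68.4 CPM in proximal, 6.69, 10.2 and 9.99 in middle and 4.74, 9.94 and 12.0 in distal cells. For both Iroquois genes, every proximal value was above every middle and distal value, and the middle and distal gates overlapped. The difference between distal and proximal cells passed the test for Irx3 (log2 fold change -3.01, SE 0.13, edgeR adjusted p = 1.0e-16) and Irx5 (log2 fold change -2.88, SE 0.11, edgeR adjusted p = 1.5e-17). Between distal and middle cells the fitted log2 fold change was -0.39 for Irx3 and -0.11 for Irx5, neither past the threshold of 0.05 (edgeR adjusted p = 0.097 and 0.70).

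Meis1 was measured at 152, 103 and 97.4 CPM in proximal, 31.8, 29.9 and 31.4 in middle and 20.5, 28.1 and 25.3 in distal Wt cells. Meis2 reached 501, 421 and 388 CPM in proximal, 100.0, 110.3 and 109.7 in middle and 90.5, 129.9 and 142 in distal cells. Both genes thus stepped down between the proximal and the middle gate. The distal against proximal test gave log2 fold change -2.21, SE 0.12, edgeR adjusted p = 3.4e-14 for Meis1 and log2 fold change -1.84, SE 0.11, edgeR adjusted p = 8.2e-14 for Meis2. The second step, from middle to distal cells, did not pass for Meis1 (log2 fold change -0.32, SE 0.14, edgeR adjusted p = 0.14) or Meis2 (log2 fold change 0.14, SE 0.11, edgeR adjusted p = 0.45).

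Meis3, the third Meis gene, was close to the limit of detection, at 4.04, 4.04 and 2.65 CPM in proximal, 0.813, 0.998 and 1.09 in middle and 1.35, 1.92 and 3.39 in distal Wt cells. Its lowest values lay in the middle gate, and its proximal and distal values overlapped. In Wt replicate 3 the distal value (3.39 CPM) was above the proximal one (2.65 CPM). It fell from proximal to distal in the fit over all libraries (log2 fold change -0.98, SE 0.20, edgeR adjusted p = 0.00013) and was higher in distal than in middle cells (log2 fold change 1.00, SE 0.27, edgeR adjusted p = 0.011). The latter call was lost without Wt replicate 2 (log2 fold change 1.09, edgeR adjusted p = 0.099) and with doublets kept (0.57, edgeR adjusted p = 0.11).

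The PBX genes, whose products partner MEIS and HOX proteins, had shallower profiles. Pbx3 stood at 117, 88.0 and 108 CPM in proximal, 74.4, 61.2 and 80.8 in middle and 47.7, 48.1 and 43.9 in distal Wt cells. It is the only member that fell at both steps in the test, with a log2 fold change of -0.49 (SE 0.06) for middle against proximal (edgeR adjusted p = 1.4e-07) and -0.57 (SE 0.06) for distal against middle (edgeR adjusted p = 3.3e-07). Pbx2 was measured at 135, 129 and 149.9 CPM in proximal, 120.2, 115 and 151 in middle and 115, 109 and 129 in distal cells. Its gates overlapped across libraries, but within each of the 3 libraries the proximal value was 1.16 to 1.18 times the distal one (log2 fold change -0.18, SE 0.03, edgeR adjusted p = 1.1e-05).

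Over the family, 7 of 7 members were lower in distal than in proximal Wt cells, where 23.0% of 13966 genes tested were called lower. The median log2 fold change was -1.84 for the members and 0.02 for all genes. Counts of members here and below are not independent of these data, since the members were chosen with earlier results known. The paper itself used Irx3 and Meis2, with Rarb and Pkdcc, to score proximal cells. Middle cells were lower than proximal cells for 6 of 7 members, beside 17.1% of genes. The exception was Pbx2 (log2 fold change -0.06, SE 0.03, edgeR adjusted p = 0.092), which passed in 8 of 15 alternatives, 4 of them the omission of 1 library, with values from -0.13 to -0.04. It passed in DESeq2 (-0.09, adjusted p = 0.0068), and without Wt replicate 3, E1C8Δ/Δ replicate 2 or E1C5Δ/Δ replicate 2 or 3. Of the 3 members called between distal and middle cells, Pbx2 and Pbx3 were lower and Meis3 higher, beside 14.9% of genes called in either direction. The Pbx2 call was lost in 2 of 15 alternatives, among them without Wt replicate 3 (log2 fold change -0.09, edgeR adjusted p = 0.065). Scaling by library totals in place of TMM factors, which correct for composition, changed the split of all genes between distal and proximal cells from 4346 higher and 3219 lower to 3356 higher and 4091 lower, and that between middle and proximal cells from 3759 and 2390 to 2411 and 3394. All 7 members stayed lower in distal than in proximal cells. The sizes depended on how the gates were set. Position gates with other distal genes were also used. Their proximal cells had at least 2 UMIs of Rarb and Pkdcc and none of Cyp26b1, Sall3, Lmo2 and Wnt5a, and distal cells the reverse. The proximal genes were thus those of the main gates. With these gates, the log2 fold change was -5.67 for Irx5, -5.40 for Irx3, -4.28 for Meis2, -3.35 for Meis1, -3.31 for Meis3, -0.87 for Pbx3 and -0.20 for Pbx2. Meis3 was then about as steep as Meis1, and Meis2 steeper.

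**Figure D1:**
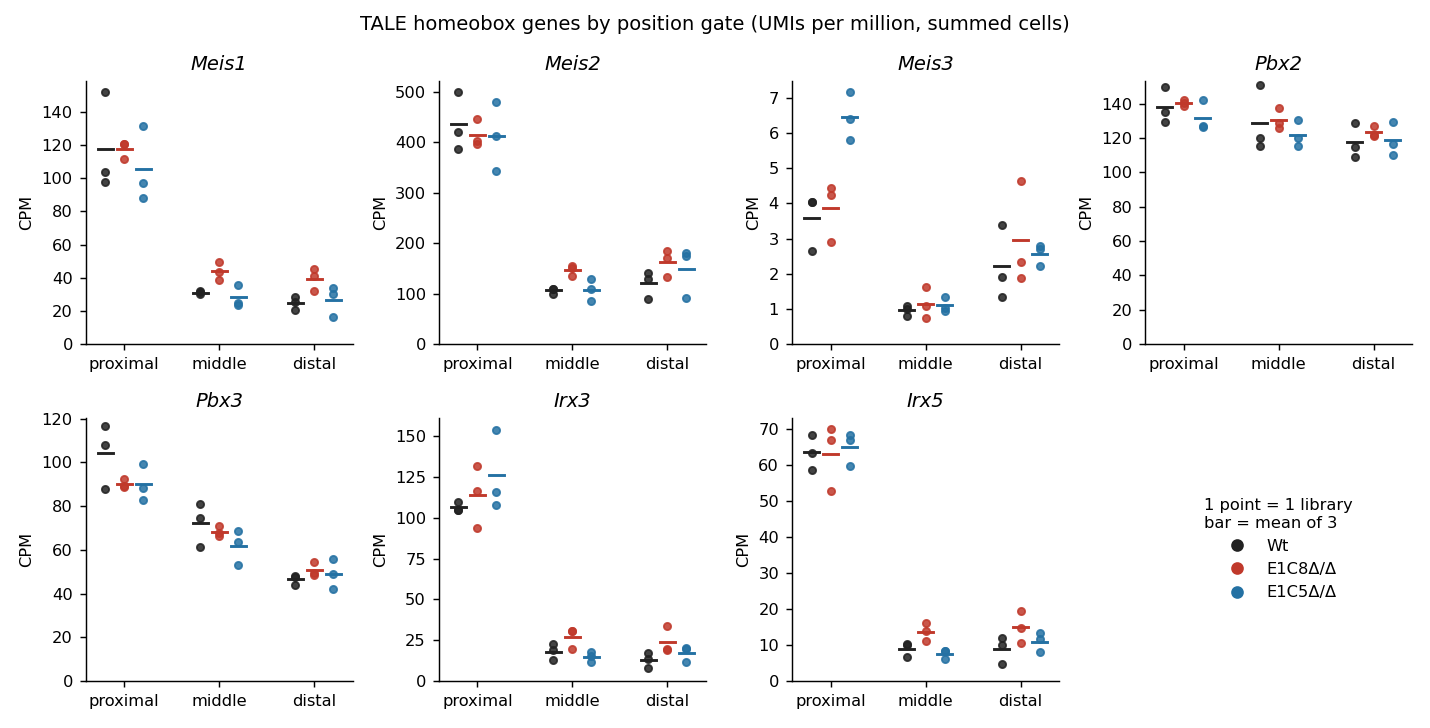
Level of each member in CPM (vertical axis, linear, from 0) in summed cells of the proximal, middle and distal mesenchyme gates (horizontal axis), with 1 point per library, colours for genotypes and a bar at the mean of 3 libraries. In Wt, Irx3 lies at 104 to 109.8 CPM in proximal cells and at 7.69 to 17.0 in distal cells, whereas Pbx2 lies at 129 to 149.9 and 109 to 129.

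A finer scale inside the mesenchyme was given by the Hoxa13 and Hoxd13 UMIs of each cell. Cells were grouped by their number of these UMIs, and each group's level was divided by that of the cells with none of the same library. With 1 such UMI, the median over 9 libraries was 34.8% for Irx3, 38.8% for Irx5, 55.7% for Meis1, 66.9% for Meis2, 68.0% for Pbx3 and 95.5% for Pbx2. With 2 UMIs, Irx3 stood at 14.1%, Irx5 at 17.6%, Meis1 at 29.6% and Meis2 at 39.7%. In these medians, the Iroquois genes thus had a smaller share left at the first Hox13 UMIs than Meis1 and Meis2. The order was not the same in every library. With 2 UMIs, Meis1 kept 18.8% in E1C8Δ/Δ replicate 1, against 22.0% for Irx3 and 24.8% for Irx5. In E1C5Δ/Δ replicate 2 these shares were 17.1%, 17.4% and 19.8%. In the 5 libraries with at least 20 cells of 5 or more UMIs, the medians of all 4 genes had come down to between 2.92% (Irx5) and 6.86% (Meis1), whereas Pbx3 kept 46.8% and Pbx2 kept 77.6%. Irx3 and Irx5 rest on few UMIs there, and their order differed between libraries. Meis3, also on few UMIs, stood at a median of 82.9% with 1 UMI and lay between 0% and 31.6% in the 5 libraries with 5 or more. The groups pool anterior and posterior cells, which are set apart further below. In posterior Wt cells, mean proximal and distal levels were 50.1 and 8.13 CPM for Irx3 and 28.7 and 6.29 for Irx5. They were 114 and 22.9 CPM for Meis1 and 423 and 125 for Meis2. By ratio, Meis1 lay between Irx3 and Irx5 there, and Meis2 fell less. The shares are descriptive and were not tested, nor was the part of the side of the bud in their order.

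**Figure D2:**
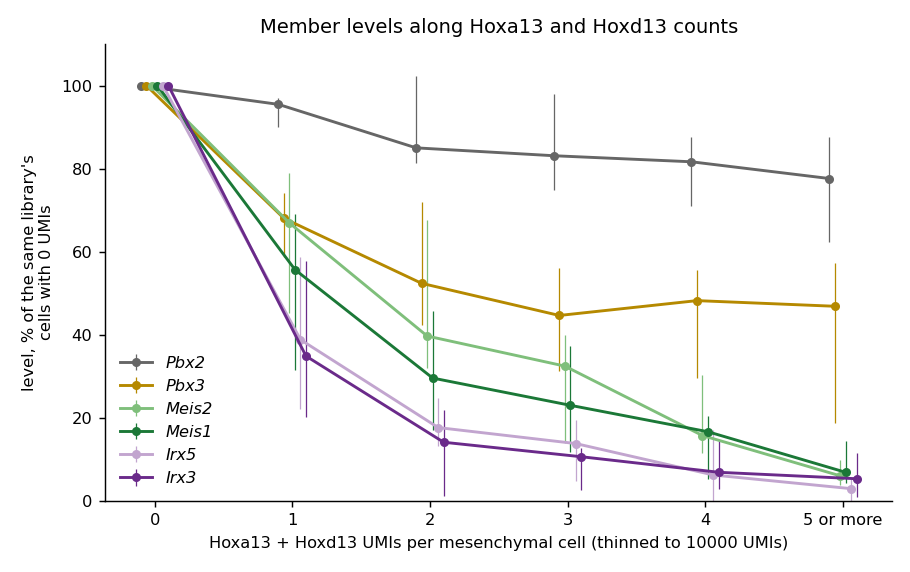
Median level of 6 members (vertical axis, percent of the level in the same library's mesenchymal cells without Hoxa13 or Hoxd13 UMIs) against the number of Hoxa13 and Hoxd13 UMIs per cell thinned to 10000 UMIs (horizontal axis), with lines from the lowest to the highest library. Pbx2 stays at 77.6% at 5 or more UMIs, where Irx3 is at 5.31% and Meis2 at 6.02%, and Meis3 is left out because of its low counts.

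Pairs of members were also read in single proximal cells, without a test. In the 9 libraries, Irx5 was detected in 51.4 to 61.8% of proximal cells with an Irx3 UMI and in 12.8 to 21.1% of those without. Meis2 was detected in 90.6 to 95.1% of proximal cells with Meis1 and in 64.4 to 83.2% of those without. Irx3 was detected in 47.9 to 65.9% of proximal cells with Meis2 and in 14.8 to 35.0% of those without. These differences had the same direction in 9 of 9 libraries. Pbx3 was detected more often in cells with Meis2 (51.7 to 65.1%) than in those without (43.8 to 66.0%) in 6 of 9 libraries. Irx3 itself was detected in 43.5 to 61.0% of thinned proximal cells against 0.820 to 4.08% of erythroid cells, which serve as a measure of free RNA here, with median depths before thinning of 16488 to 45730 and 18106 to 39526 UMIs.

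Other genes with the same profile were ranked by Pearson's r of log2(CPM + 1) over the 27 sums of 9 libraries and 3 position gates. These sums share libraries, so r is a description only. Lepr (r = 0.98), Lhfp, Hoxb3, Bmpr1b and Hoxc4 (0.97) came closest to Meis1. Hoxc4 (0.98), Lhfp, Hoxb4, Hoxb3 and C130026L21Rik (0.97) came closest to Irx3. For Irx5 they were G630016G05Rik (0.97), Lhfp, Hoxb4, Hoxb3 and Ror1 (0.96), and for Meis2 2700033N17Rik (0.97), Ror1, Ptn, A830082K12Rik and G630016G05Rik (0.96). Hoxb3 and Lhfp stood among the closest genes of Meis1, Irx3 and Irx5 alike.

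The other genes of the proximal program, listed by name, included retinoic acid genes, transcription factors of the proximal limb, other TALE genes and neighbours of Irx3 and Irx5. All 8 proximal transcription factors were lower in distal Wt cells (median log2 fold change -2.22), with Pax1 at -3.50 and Shox2 at -0.58. Of 13966 genes tested, 3219 (23.0%) were called lower and 4346 higher. The list is not independent of these data, since it was chosen with earlier results known. The paper places Gsc, Creb5, Emx2, Pax1 and Alx4 among genes enriched in its proximal clusters from these libraries. Of 9 retinoic acid genes tested, 7 were lower and 1 was higher. Cyp26b1, the enzyme that degrades retinoic acid in the distal bud, was the one that rose (log2 fold change 2.27, SE 0.10, edgeR adjusted p = 4.4e-16), while the receptor genes Rara (-0.53) and Rarg (-0.33) and the retinol transporter gene Stra6 (-0.81) fell. None of 7 other TALE genes tested was lower in distal cells, and Pknox1 (0.25), Pknox2 (1.56) and Tgif2 (0.22) were higher. Among the neighbours, the RNA gene Crnde starts 1.5 kb from Irx5 on the other strand and fell nearly as far as Irx5 (log2 fold change -2.48, SE 0.19, edgeR adjusted p = 2.0e-11), whereas Fto (-0.22), Rpgrip1l (-0.28) and Mmp2 (0.12) moved by far less.

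The members also differed between the anterior and the posterior side, most of all Irx3 and Irx5. Anterior cells had a UMI of Alx4 or Pax1 and none of Hand2, Shh, Osr1 or Prdm1, and posterior cells the reverse. In Wt, Irx3 stood at 115, 140.3 and 146 CPM in anterior and 18.6, 27.2 and 19.4 in posterior mesenchyme. Irx5 stood at 64.3, 83.0 and 97.7 CPM in anterior and 10.6, 15.5 and 11.6 in posterior cells. The sides did not overlap, and the anterior level was 5.17 to 7.52 times the posterior one for Irx3 (log2 fold change 2.53, SE 0.08, edgeR adjusted p = 5.1e-16) and 5.35 to 8.42 times for Irx5 (log2 fold change 2.56, SE 0.09, edgeR adjusted p = 1.0e-14).

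Meis1 (96.7, 82.8 and 90.4 CPM in anterior and 63.6, 54.7 and 44.3 in posterior Wt cells) and Meis2 (321, 326 and 388 against 231, 235 and 177) had smaller anterior excesses. Their log2 fold changes were 0.65 (SE 0.06) and 0.63 (SE 0.08), and that of Pbx3 was 0.61 (SE 0.04) (edgeR adjusted p = 1.1e-07, 6.5e-06 and 1.4e-10). In all, 5 of 7 members were higher in anterior Wt cells, beside 9.34% of 13013 genes. Pbx2 was slightly lower (log2 fold change -0.14, SE 0.03, edgeR adjusted p = 0.0039). This call was lost in 2 of 15 alternatives, among them without Wt replicate 1 (log2 fold change -0.12, edgeR adjusted p = 0.086). Meis3 did not pass (log2 fold change 0.41, SE 0.16, edgeR adjusted p = 0.073). Library totals in place of TMM changed the split of all genes from 1216 higher and 1710 lower to 1466 higher and 1213 lower.

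Anterior and posterior gates held different shares of proximal cells, so the sides were also compared inside the proximal gate, a comparison added after the data had been seen. Irx3 was 175, 182 and 181 CPM in anterior proximal and 51.9, 56.1 and 42.2 in posterior proximal Wt cells (log2 fold change 1.78, SE 0.06, edgeR adjusted p = 1.3e-20). Irx5 was 101, 109 and 123 against 29.6, 31.9 and 24.5 (log2 fold change 1.85, SE 0.08, edgeR adjusted p = 2.2e-18). Pbx3 remained higher on the anterior side (log2 fold change 0.32, SE 0.04, edgeR adjusted p = 5.8e-07). These 3 members were called higher, beside 10.0% of 11987 genes. Pbx2 was called lower (log2 fold change -0.15, SE 0.04, edgeR adjusted p = 0.0035), a call that was lost without Wt replicate 1 (-0.11, edgeR adjusted p = 0.15). For Meis1 (log2 fold change 0.02, SE 0.05, edgeR adjusted p = 0.87) and Meis2 (log2 fold change 0.11, SE 0.07, edgeR adjusted p = 0.29) the difference did not pass between the sides of the proximal gate. Position was not tested inside each side, and distal Wt cells were mostly posterior (1520 cells, against 74 anterior). In anterior Wt cells, Irx3 was 175 to 182 CPM in the proximal gate. In the 2 Wt libraries with at least 20 distal anterior cells, it was 46.4 and 105 CPM there. Posterior Irx3 was 42.2 to 56.1 CPM in proximal and 5.49 to 9.81 in distal Wt cells.

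In E1C8Δ/Δ limb buds, the posterior level of Irx3 was 52.2, 45.0 and 36.0 CPM, above every Wt library, and the anterior level was 132, 137 and 106 CPM, overlapping the Wt range. In E1C5Δ/Δ limb buds, Irx3 stood at 30.6, 30.5 and 37.9 CPM in posterior and 174, 125 and 175 in anterior cells. Its posterior values in the 3 genotypes did not overlap between Wt and either mutant. Irx5 showed the same order, with posterior levels of 26.8, 24.3 and 20.7 CPM in E1C8Δ/Δ and 19.7, 19.9 and 18.4 in E1C5Δ/Δ, and anterior levels of 71.0, 78.1 and 58.9 and 103, 64.2 and 75.5. Meis2 was 257, 306 and 292 CPM in anterior and 279, 271 and 319.6 in posterior E1C8Δ/Δ cells, without a clear excess on either side. The ratio of anterior to posterior Irx3 was 2.53 to 3.04 in E1C8Δ/Δ and 4.08 to 5.68 in E1C5Δ/Δ, and that of Irx5 was 2.65 to 3.21 and 3.22 to 5.26. For Meis2 this ratio was 1.39 to 2.20 in Wt, 0.915 to 1.13 in E1C8Δ/Δ and 1.20 to 1.50 in E1C5Δ/Δ, and for Meis1 1.51 to 2.04, 1.05 to 1.24 and 1.43 to 1.88.

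The test of the difference itself, the anterior against posterior log2 fold change in a mutant minus that in Wt, gave difference -0.99, SE 0.11, edgeR adjusted p = 8.2e-05 for Irx3 and difference -0.98, SE 0.14, edgeR adjusted p = 0.00086 for Irx5 in E1C8Δ/Δ. Meis2 (difference -0.64, SE 0.12, edgeR adjusted p = 0.017) and Meis1 (difference -0.43, SE 0.09, edgeR adjusted p = 0.049) passed as well. This made 4 of 7 members, beside 0.415% of genes (54 of 13013). For the mean of both mutants, Irx3 (difference -0.64, SE 0.09, edgeR adjusted p = 0.00053) and Irx5 (difference -0.74, SE 0.11, edgeR adjusted p = 0.0012) were called, beside 0.515% of genes. Gates at 5000 UMIs ended the Irx3 call for both mutants (difference -0.29, edgeR adjusted p = 0.28) and kept that of Irx5 (-0.48, edgeR adjusted p = 0.013). In E1C8Δ/Δ they kept both calls, with Irx3 at -0.56 (edgeR adjusted p = 0.020) and Irx5 at -0.66. For E1C5Δ/Δ alone none was called, beside 1.12% of genes, where the difference was -0.30 (SE 0.10) for Irx3 and -0.50 (SE 0.13) for Irx5 (edgeR adjusted p = 0.28 and 0.060) and 2 members had an unadjusted p under 0.05. Irx3 and Irx5 remained called in E1C8Δ/Δ without any 1 library and with a sex by gate term, under which Meis1 and Meis2 were lost (edgeR adjusted p = 0.51 and 0.18). Meis2 was also lost without E1C8Δ/Δ replicate 1 (difference -0.61, edgeR adjusted p = 0.071) or replicate 3 (-0.59, edgeR adjusted p = 0.18), and Meis1 without any 1 of the 3 Wt or the 3 E1C8Δ/Δ libraries (edgeR adjusted p = 0.070 to 0.29).

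**Figure D3:**
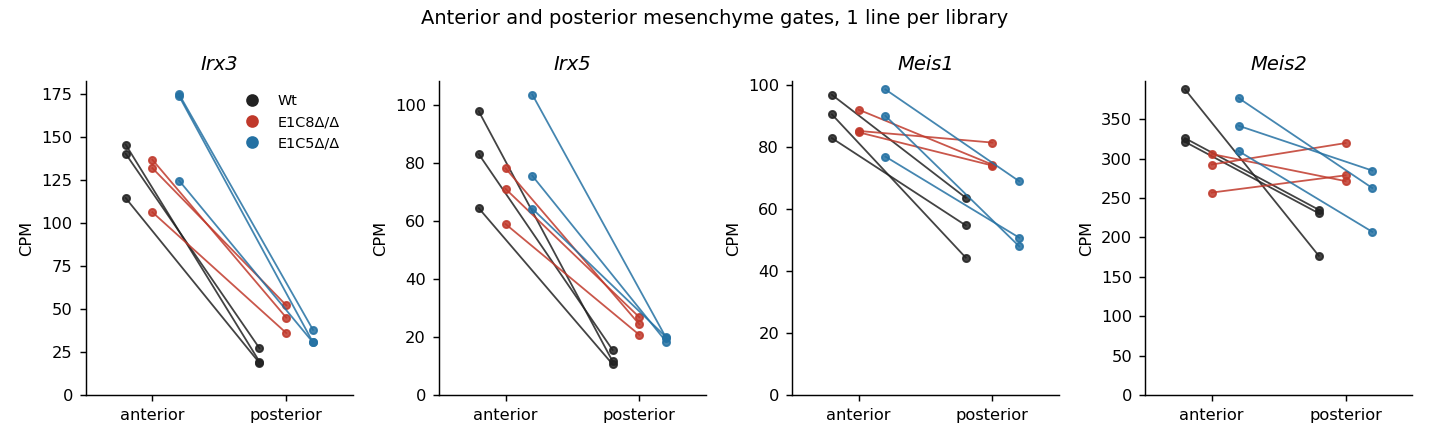
Levels of Irx3, Irx5, Meis1 and Meis2 in CPM (vertical axis, linear, from 0) in the anterior and posterior mesenchyme gates (horizontal axis), with 1 line per library and colours for genotypes. The posterior end of the lines for Irx3 lies at 18.6 to 27.2 CPM in Wt, 36.0 to 52.2 in E1C8Δ/Δ and 30.5 to 37.9 in E1C5Δ/Δ, and the Meis2 lines rise or fall in E1C8Δ/Δ but fall in the 6 other libraries.

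The genotypes were then compared inside each side, also after the data had been seen. In posterior mesenchyme, E1C8Δ/Δ exceeded Wt for Irx3 (log2 fold change 0.97, SE 0.16, edgeR adjusted p = 0.0056) and Irx5 (log2 fold change 0.87, SE 0.16, edgeR adjusted p = 0.0079), 2 of 7 members beside 10.2% of genes. Both calls held without any 1 library. They did not hold with a term for sex, which left the fold changes at 0.82 and 0.84 (edgeR adjusted p = 0.055 and 0.056). Over all alternatives other than leaving out a library, the log2 fold changes were 0.61 to 1.01 for Irx3 and 0.58 to 0.91 for Irx5. Among the male libraries alone, posterior Irx3 was at or below 27.2 CPM in 3 Wt embryos, at 36.0 in E1C8Δ/Δ replicate 3 and at 30.5 in E1C5Δ/Δ replicate 2. Without the male libraries that held Xist, 27.2 and 19.4 in Wt stood beside 30.5 in E1C5Δ/Δ replicate 2, and no male E1C8Δ/Δ library was left. E1C5Δ/Δ against Wt gave 0.64 (SE 0.16) for Irx3 and 0.66 (SE 0.15) for Irx5 (edgeR adjusted p = 0.070 and 0.052), with no member called, beside 1.90% of genes, and 3 at an unadjusted p under 0.05. Both passed without Wt replicate 2 (0.88 and 0.89, edgeR adjusted p = 0.013 and 0.012). In anterior mesenchyme none of the members was called between E1C8Δ/Δ and Wt, beside 2.36% of genes, and none had an unadjusted p under 0.05. Irx3 there gave -0.10 (SE 0.15) and Irx5 gave -0.23 (SE 0.19).

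Proximal cells made up 31.1 to 37.2% of the posterior gate in Wt, 40.5 to 45.2% in E1C8Δ/Δ and 36.7 to 41.0% in E1C5Δ/Δ. E1C8Δ/Δ did not overlap with Wt, 1 E1C5Δ/Δ library lay within the Wt range, and these shares were not tested. Inside posterior proximal cells, Irx3 stood at 51.9, 56.1 and 42.2 CPM in Wt, 105, 76.5 and 62.5 in E1C8Δ/Δ and 63.1, 66.9 and 84.0 in E1C5Δ/Δ. The Wt libraries lay below all 6 mutant libraries here as well. The test gave log2 fold change 0.63, SE 0.16, edgeR adjusted p = 0.039 for Irx3 in E1C8Δ/Δ and log2 fold change 0.51, SE 0.14, edgeR adjusted p = 0.053 for Irx5, or 1 of 7 members beside 5.04% of genes. The Irx3 call was lost without Wt replicate 1, 2 or 3, E1C8Δ/Δ replicate 1 or 2 or E1C5Δ/Δ replicate 2 (log2 fold change 0.47 to 0.76, edgeR adjusted p = 0.057 to 0.13). The anterior against posterior difference between genotypes, tested inside proximal cells, passed for Irx3 in E1C8Δ/Δ (difference -0.56, SE 0.09, edgeR adjusted p = 0.0018) and was the only one of 7 members, beside 0.0584% of genes (7 of 11987). It held without any 1 library. For both mutants together, Irx3 (difference -0.40, SE 0.07, edgeR adjusted p = 0.0064) and Irx5 (difference -0.47, SE 0.09, edgeR adjusted p = 0.015) were called, beside 0.384% of genes. Both calls were lost without Wt replicate 1 (-0.42 and -0.51, edgeR adjusted p = 0.055 and 0.069), that of Irx5 without E1C8Δ/Δ replicate 3 (-0.47, edgeR adjusted p = 0.072) and that of Irx3 with a sex by gate term (-0.46, edgeR adjusted p = 0.12). In middle posterior cells, Irx3 was 4.91, 12.1 and 11.2 CPM in Wt, 18.2, 23.7 and 17.2 in E1C8Δ/Δ and 8.44, 8.37 and 10.68 in E1C5Δ/Δ, which lay within the Wt range. In distal posterior cells it was 5.49, 9.81 and 9.10 in Wt, 11.5, 20.2 and 16.9 in E1C8Δ/Δ and 10.97, 8.09 and 15.1 in E1C5Δ/Δ, which overlapped with Wt. E1C8Δ/Δ and Wt did not overlap in either.

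Posterior identity was also held more tightly. Among cells with 2 or more UMIs of Hand2, a transcription factor of the posterior bud, Irx3 stood at 10.79, 18.3 and 10.5 CPM in Wt, 33.6, 30.3 and 28.0 in E1C8Δ/Δ and 17.5, 20.2 and 26.4 in E1C5Δ/Δ, on UMIs thinned to 10000 per cell. E1C8Δ/Δ and Wt did not overlap, and 1 E1C5Δ/Δ library lay within the Wt range. In the proximal cells among them, Irx3 was 30.3, 37.0 and 21.8 CPM in Wt, 77.6, 51.3 and 48.8 in E1C8Δ/Δ and 37.0, 46.6 and 59.3 in E1C5Δ/Δ. Here E1C8Δ/Δ again did not overlap with Wt, whereas E1C5Δ/Δ overlapped with both. The share of posterior cells with an Irx3 UMI was 11.5 to 15.5% in Wt, 24.3 to 28.2% in E1C8Δ/Δ and 17.8 to 21.8% in E1C5Δ/Δ, against 0.820 to 4.08% of erythroid cells. Median depths before thinning were 29709 to 52472 UMIs in posterior Wt cells, 16842 to 31098 in E1C8Δ/Δ and 31433 to 43886 in E1C5Δ/Δ. Crnde, beside Irx5, was 0.938, 1.59 and 1.04 CPM in posterior Wt cells and 3.45, 2.85 and 2.64 in E1C8Δ/Δ (log2 fold change 1.21, SE 0.33, edgeR adjusted p = 0.039). Rarb, a receptor and target gene of retinoic acid and a gene of the proximal gate, rose in posterior E1C8Δ/Δ cells (log2 fold change 0.96, SE 0.16, edgeR adjusted p = 0.0062), and Cyp26b1 fell (log2 fold change -0.92, SE 0.14, edgeR adjusted p = 0.0036). In this comparison, 3 of 10 retinoic acid genes were higher and 1 was lower, beside 10.2% of genes called in either direction (median 0.16, against -0.01 for all genes).

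**Figure D4:**
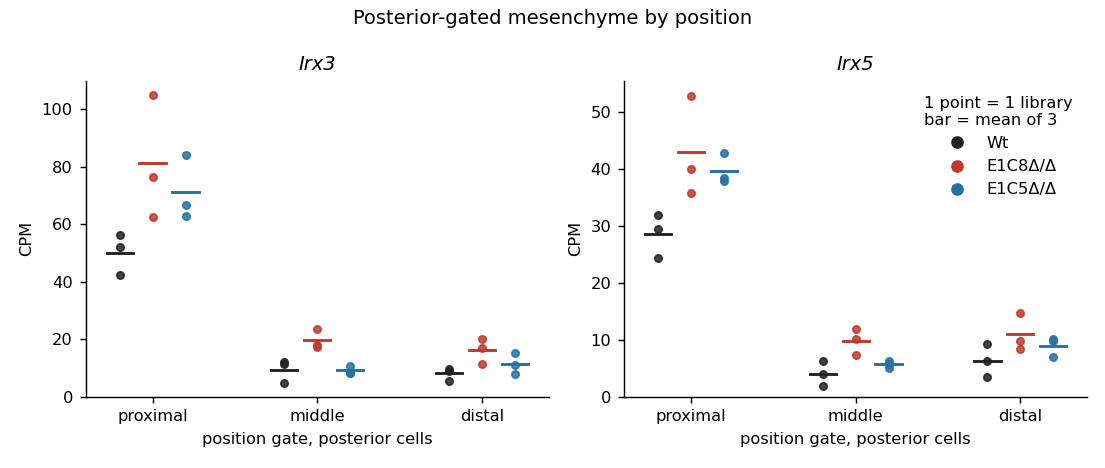
Irx3 and Irx5 in CPM (vertical axis, linear, from 0) in posterior cells of the proximal, middle and distal gates (horizontal axis), with 1 point per library and a bar at the mean of 3 libraries per genotype. In posterior proximal cells, Irx3 lies at 42.2 to 56.1 CPM in Wt, 62.5 to 105 in E1C8Δ/Δ and 63.1 to 84.0 in E1C5Δ/Δ.

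Over the mesenchyme as a whole, the members did not pass the test between genotypes. None of 7 was called for both mutants against Wt, beside 2.14% of 16110 genes, and 2 had an unadjusted p under 0.05. Irx3 stood at 43.9, 57.0 and 48.8 CPM in Wt, 73.0, 71.2 and 53.1 in E1C8Δ/Δ and 63.4, 53.9 and 75.6 in E1C5Δ/Δ (log2 fold change 0.39, SE 0.12, edgeR adjusted p = 0.12). Meis3 stood at 2.07, 2.51 and 2.19 CPM in Wt, 3.30, 2.12 and 2.88 in E1C8Δ/Δ and 4.22, 3.52 and 3.58 in E1C5Δ/Δ (log2 fold change 0.51, SE 0.16, edgeR adjusted p = 0.12). DESeq2 called these 2 genes. The count was 0 in E1C8Δ/Δ alone, beside 9.15% of genes, and 0 in E1C5Δ/Δ alone, beside 1.41%, with 2 members at an unadjusted p under 0.05 in each. Meis2 was 237, 244 and 213 CPM in Wt, 252, 268 and 287 in E1C8Δ/Δ and 262, 199.9 and 281 in E1C5Δ/Δ, so that the E1C8Δ/Δ libraries lay above Wt and the E1C5Δ/Δ libraries overlapped both (log2 fold change 0.20, SE 0.13, edgeR adjusted p = 0.35 for E1C8Δ/Δ). The proximal gate took 36.3 to 43.2% of mesenchymal cells in Wt, 45.3 to 48.8% in E1C8Δ/Δ and 44.0 to 48.5% in E1C5Δ/Δ. Its part in these sums was not tested. The share taken by the gate also depends on the level of the gate genes, and Rarb was itself higher in the mutants.

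Inside each position gate, none of the members was called for both mutants against Wt. The background was 1.24% of genes in proximal, 1.86% in middle and 1.26% in distal cells, and 2, 1 and 2 members had an unadjusted p under 0.05. DESeq2 called none in these gates either, whereas without a filter on low counts 4 of 7 were called in distal cells. In the proximal gate, Irx3 was 131, 117 and 94.0 CPM in E1C8Δ/Δ and 116, 108 and 154 in E1C5Δ/Δ, and Meis1 was 121, 120.3 and 112 and 87.9, 97.1 and 132, all overlapping Wt. In the middle gate, Meis1 was 49.5, 43.7 and 38.6 CPM in E1C8Δ/Δ, above the Wt libraries (log2 fold change 0.47, SE 0.12, edgeR adjusted p = 0.033), and Meis2 was 135, 152 and 156 (log2 fold change 0.46, SE 0.13, edgeR adjusted p = 0.046), 2 of 7 members beside 9.44% of genes. Each of these calls was lost without any 1 of the Wt or E1C8Δ/Δ libraries (edgeR adjusted p = 0.060 to 0.17). Between the mutants, Meis1, Irx3 and Irx5 were higher in E1C8Δ/Δ middle cells (log2 fold changes 0.57, 0.76 and 0.78, edgeR adjusted p = 0.015, 0.040 and 0.028), beside 9.72% of genes, and no call was left without E1C8Δ/Δ replicate 1, E1C8Δ/Δ replicate 2 or E1C5Δ/Δ replicate 2. Meis3 in proximal cells was 4.24, 2.90 and 4.44 CPM in E1C8Δ/Δ and 7.16, 5.79 and 6.40 in E1C5Δ/Δ (log2 fold change -0.84, SE 0.21, edgeR adjusted p = 0.038), 1 of 7 members beside 6.64% of genes, and this call was lost without any 1 mutant library (edgeR adjusted p = 0.054 to 0.17).

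The distal decline of the members was also found in the mutants. All 7 were lower in distal than in proximal cells of E1C8Δ/Δ, beside 17.2% of genes called lower, and of E1C5Δ/Δ, beside 19.2%. Distal Irx3 was 18.9, 33.5 and 19.5 CPM in E1C8Δ/Δ and 20.2, 11.8 and 19.7 in E1C5Δ/Δ, and distal Meis1 was 32.3, 45.3 and 40.9 and 30.2, 16.3 and 33.9. The proximal to distal ratio of Irx3 was 6.45 to 13.6 in Wt, 3.49 to 6.96 in E1C8Δ/Δ and 5.74 to 9.12 in E1C5Δ/Δ, with overlap. The distal against proximal log2 fold change in E1C8Δ/Δ minus that in Wt passed for Irx3 (difference 0.93, SE 0.20, edgeR adjusted p = 0.0096), Irx5 (difference 0.87, SE 0.18, edgeR adjusted p = 0.0082) and Meis1 (difference 0.75, SE 0.19, edgeR adjusted p = 0.025), 3 of 7 members beside 2.89% of genes. For both mutants together it passed for Meis2 (difference 0.47, SE 0.13, edgeR adjusted p = 0.038) and Irx5 (difference 0.62, SE 0.15, edgeR adjusted p = 0.018), beside 4.26% of genes, and for E1C5Δ/Δ alone for none, beside 2.62%, with 3 at an unadjusted p under 0.05. These calls were not stable. For both mutants, Meis2 ranged from 0.16 without Wt replicate 1 (edgeR adjusted p = 0.52) to 0.65 without Wt replicate 3, and its call was lost in 9 of 16 alternatives. Irx5 ranged from 0.32 without Wt replicate 1 (edgeR adjusted p = 0.21) to 0.89 without Wt replicate 2 when 1 library was left out, and its call was lost in 6 of 16. For E1C8Δ/Δ no call was left without E1C8Δ/Δ replicate 2, only Irx5 without Wt replicate 1, and none with gates at 5000 UMIs or with a sex by gate term. Without Wt replicate 1 the differences in E1C8Δ/Δ were 0.39 for Meis1, 0.61 for Irx3 and 0.57 for Irx5. With position gates with other distal genes, the Meis1 difference in E1C8Δ/Δ turned to -0.033 (edgeR adjusted p = 0.97). The make-up of the distal gate also differed between genotypes. Cells with 5 or more Hoxa13 and Hoxd13 UMIs were 1.42 to 2.46% of mesenchyme in Wt, 0.370 to 0.883% in E1C8Δ/Δ and 0.229 to 0.484% in E1C5Δ/Δ. Cells with 1 such UMI were 10.3 to 11.6%, 8.61 to 10.4% and 10.1 to 11.3%. The part of this make-up in the differences above was not tested.

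Cells on the way to cartilage had higher fitted levels of the members, least surely of Meis3. Cells with a UMI each of Sox9, the regulator of chondrogenesis, and Col2a1, a cartilage collagen gene, were compared with cells that had neither. Position and side were not held in this comparison, and their part in it was not tested. In Wt, Meis1 was 147, 108 and 72.9 CPM in chondrogenic and 36.4, 32.8 and 43.7 in other cells, and Irx3 was 93.2, 95.4 and 62.5 and 20.4, 29.5 and 42.5. Their ranges did not overlap, and the differences passed the test for Meis1 (log2 fold change 1.55, SE 0.14, edgeR adjusted p = 7.7e-08) and Irx3 (log2 fold change 1.55, SE 0.20, edgeR adjusted p = 3.4e-06). All 7 members were higher, beside 28.2% of 13432 genes, from Pbx2 (0.25) and Meis3 (0.45) through Pbx3 (0.50) and Meis2 (0.96) to Irx5 (1.48). With library totals, all genes split into 4949 higher and 2829 lower in place of 3786 and 3834. The Wt ranges of Meis3 overlapped (2.00 to 3.66 CPM in chondrogenic and 1.97 to 2.38 in other cells). Its call was lost in 5 of 14 alternatives, among them without Wt replicate 1 (log2 fold change 0.45, edgeR adjusted p = 0.099) or replicate 2 (0.24, edgeR adjusted p = 0.47). In E1C5Δ/Δ, Meis3 was 8.58, 7.28 and 8.64 CPM in chondrogenic and 3.22, 2.68 and 2.01 in other cells, a larger difference than in Wt (difference 1.19, SE 0.22, edgeR adjusted p = 0.0093). It was the only one of 7 members for which the difference between these genotypes was called, beside 1.90% of genes, and 5 of 7 had an unadjusted p under 0.05. The Meis3 call was lost without E1C5Δ/Δ replicate 3 (difference 0.87, edgeR adjusted p = 0.074) and with gates at 5000 UMIs (1.09, edgeR adjusted p = 0.070). Without Wt replicate 1, 4 members were called. The chondrogenic gate took 24.2 to 36.3% of mesenchymal cells in Wt and 15.4 to 20.1% in E1C5Δ/Δ. The part of this shift in the Meis3 difference was not tested.

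Outside the mesenchyme, Irx3 and Irx5 were lower than in mesenchyme in all 5 lineages tested, whereas Meis1 and Meis3 were higher in epithelium than in mesenchyme as a whole. Lineages were gated by their own markers, and only libraries with at least 20 cells of a lineage were used. In the 6 libraries with enough epithelial cells (Epcam, Cdh1, Wnt6 and Esrp1), Meis1 ranged from 74.0 to 118 CPM, against 53.3 to 79.4 in the mesenchyme of 9 libraries (log2 fold change 0.50, SE 0.12, edgeR adjusted p = 0.00041). Meis3 ranged from 4.45 to 12.3 CPM against 2.07 to 4.22 (log2 fold change 1.32, SE 0.23, edgeR adjusted p = 5.9e-06), and Meis2 did not differ past the threshold (log2 fold change 0.26, SE 0.16, edgeR adjusted p = 0.19). Pbx2, Pbx3, Irx3 and Irx5 were lower, so that 6 of 7 members were called, beside 54.4% of 13677 genes. In the proximal gate alone, Meis1 was 87.9 to 152 CPM and Meis3 2.65 to 7.16, and both ranges overlapped those of epithelium.

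In muscle progenitors (Lbx1, Pax3, Myf5 and Myod1), Pbx3 was 60.6 to 109 CPM over 9 libraries, against 66.7 to 84.6 in mesenchyme (log2 fold change 0.25, SE 0.05, edgeR adjusted p = 0.00022). It was the only member called higher there. Meis1, Meis2, Irx3 and Irx5 were lower, with log2 fold changes of -1.52, -1.47, -2.12 and -2.07, and 5 of 7 members were called, beside 42.4% of genes. All 7 were lower in endothelium, where 5046 of 13677 genes were called lower and 4745 higher (71.6% in either direction). In macrophages 6 of 7 were lower, beside 4272 genes called lower and 4014 higher (60.6% in either direction). There, 3 libraries had enough cells and Meis3 did not pass (log2 fold change -0.78, SE 0.60, edgeR adjusted p = 0.26). In erythroid cells all 7 were lower, beside 42.7% of genes called lower, with Irx3 at 1.16 to 3.78 CPM and Meis2 at 3.70 to 13.3 in 7 libraries. Erythroid RNA is dominated by few genes, and the median log2 fold change of all genes was -0.14 with TMM factors and -1.59 with library totals. Beside the former, Irx3 lay at -3.19 and Pbx3 at -0.79. The median moved by less in endothelium (-0.04 to -0.18) and macrophages (-0.12 to -0.27). With library totals, the calls over all genes changed from 4925 higher and 5834 lower to 1044 and 11352 in erythroid cells and from 2757 and 3040 to 1896 and 3663 in muscle.

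**Figure D5:**
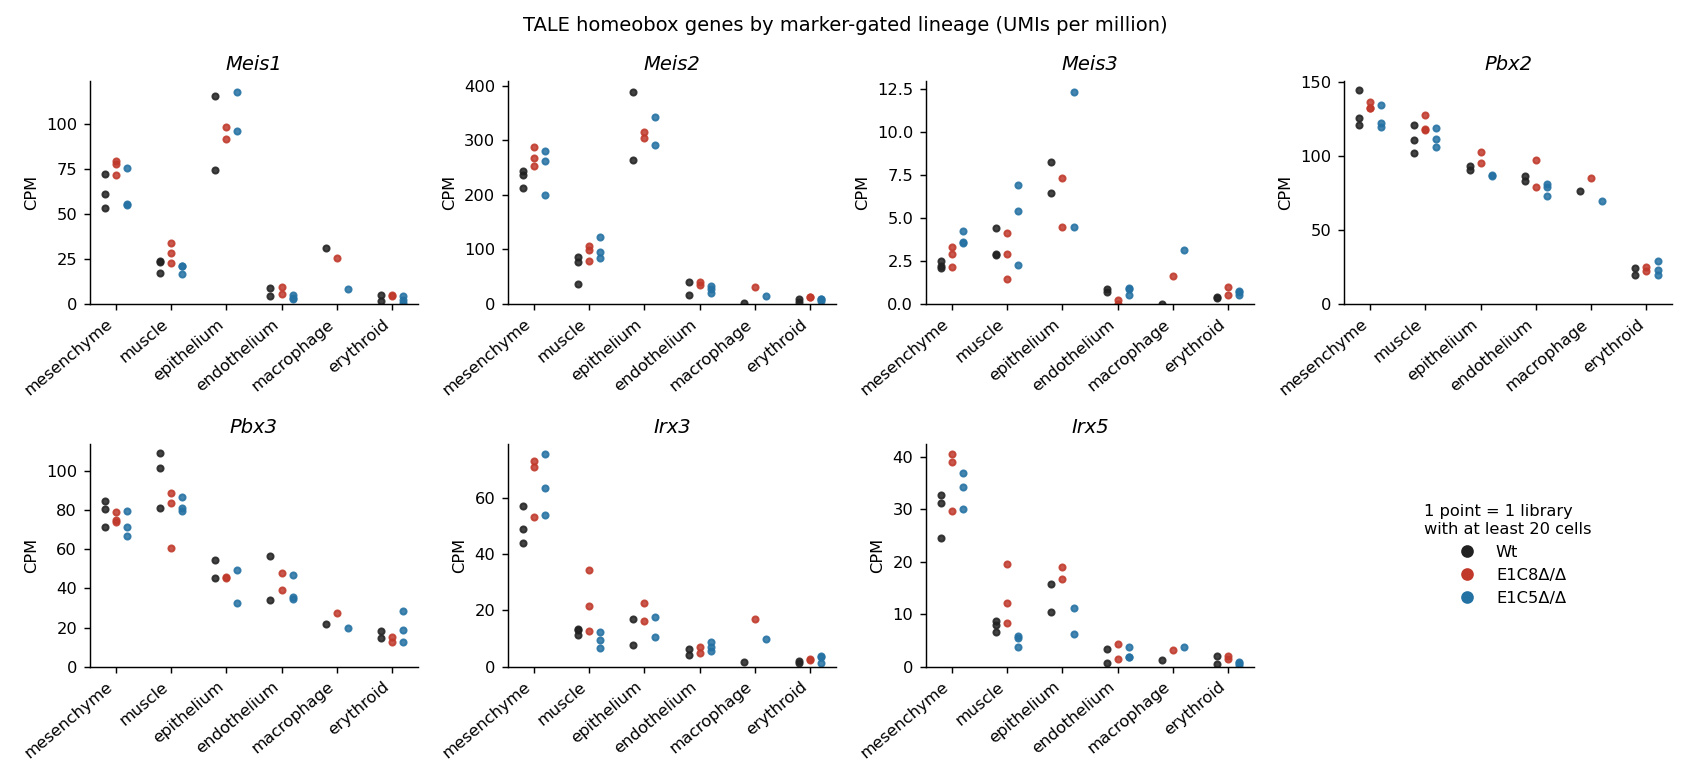
Level of each member in CPM (vertical axis, linear, from 0) in 6 lineages gated by marker genes (horizontal axis), with 1 point per library that held at least 20 cells of the lineage and colours for genotypes. Irx3 lies at 43.9 to 75.6 CPM in mesenchyme and at 7.82 to 22.7 in epithelium, whereas Meis2 lies at 199.9 to 287 and 264 to 389.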

How the data were processed

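Single-cell RNA sequencing libraries were prepared from the forelimb buds of 9 embryos with a Chromium 3′ kit. The authors deposited a matrix of UMI counts per gene and cell for each library, made with Cell Ranger 6.0.1 on mm10 per the labels, and analysed them with Seurat 4.3.0.1 per the processing notes. The counts were used as deposited and carry no normalization. Groups were taken from the labels.

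Cells with at least 2500 genes, at most 200000 UMIs and at most 10% mitochondrial UMIs were kept, and doublets were removed by comparison with artificial doublets at a rate of 0.8% per 1000 barcodes. The remaining cells were thinned to 10000 UMIs for gating, and shallower cells were left out. UMIs of at least 20 cells per library and gate were summed. Genes on X and Y, mitochondrial genes and transgene rows were left out of the tests. Sums were tested with the quasi-likelihood test of edgeR 4.0.16 in R 4.3.3 after filterByExpr and TMM scaling, with Benjamini-Hochberg adjustment over all genes tested and a threshold of 0.05. Comparisons within libraries (position, side, cartilage, lineage) kept the library as a block. Cells were never treated as replicates. On simulated data with 200 genes changed by a log2 fold of 1, 73.5% were recovered for both mutants against Wt in mesenchyme (15947 genes), 90% for distal against proximal cells (13856 genes) and 84.5% for the anterior against posterior difference of both mutants from Wt (12940 genes).

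The 7 members were named in every comparison. Other genes were named from fixed lists (other TALE genes, retinoic acid genes, proximal transcription factors, neighbours of Irx3 and Irx5) and as the 5 genes most like Meis1, Meis2, Irx3 and Irx5 over position sums. The members and these lists were chosen with earlier results of these data known. The alternatives were DESeq2 1.42.0, library totals, no filter on low counts, doublets kept and gates at 5000 UMIs. Further ones were position gates with other distal genes, a term for embryo sex, the replicate number as a block and each library left out. The sex by gate term and all comparisons inside the anterior, posterior, anterior proximal and posterior proximal cells were added after the data had been seen. Depth limits Meis3 most, since its sums rest on few UMIs.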

Additional observations from a re-analysis of the deposited data

Results flagged for a closer look

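In each of the following results, the test of the difference between genotypes itself passed the threshold (edgeR, adjusted over all genes). The first set is the anterior against posterior log2 fold change in a mutant minus that in Wt. In E1C8Δ/Δ it was -0.99 for Irx3, -0.98 for Irx5, -0.64 for Meis2 and -0.43 for Meis1. For the mean of both mutants it was -0.64 for Irx3 and -0.74 for Irx5. Inside proximal cells it was -0.56 for Irx3 in E1C8Δ/Δ, and -0.40 for Irx3 and -0.47 for Irx5 for both mutants.

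The second set is the distal against proximal log2 fold change in a mutant minus that in Wt. In E1C8Δ/Δ it was 0.93 for Irx3, 0.87 for Irx5 and 0.75 for Meis1. For both mutants it was 0.47 for Meis2 and 0.62 for Irx5. The chondrogenic against other log2 fold change of Meis3 in E1C5Δ/Δ exceeded that in Wt by 1.19.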

How the results depend on the processing

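Of 500 recomputed counts of called members, 402 stayed within 1.5 times the reported count. Of 1102 recomputed values of single members, 934 kept direction and side of the threshold, 126 lost the call, 37 gained one and 5 turned direction. The count of 7 in distal against proximal Wt cells held in every alternative run, and leaving out each library in turn gave 6 to 7 for middle against proximal, 2 to 4 for distal against middle (3 reported), 5 to 7 for anterior against posterior, 6 to 7 for chondrogenic cells, 6 to 7 for erythroid cells, 6 to 6 for epithelium, 5 to 6 for muscle, 7 to 7 for endothelium and 6 to 6 for macrophages. Leaving out libraries gave 0 to 0 for both mutants and each mutant in mesenchyme, for both mutants in the 3 position gates and for E1C8Δ/Δ in anterior cells. It gave 0 to 2 for E1C5Δ/Δ in posterior cells (0 reported), 0 to 1 for E1C8Δ/Δ against E1C5Δ/Δ in proximal cells, 0 to 3 in middle cells, 0 to 2 for E1C8Δ/Δ against Wt in middle cells, 2 to 3 in posterior and 0 to 2 in posterior proximal cells. For the distal against proximal difference from Wt it gave 0 to 5 for both mutants, 0 to 5 for E1C8Δ/Δ and 0 to 1 for E1C5Δ/Δ. For the anterior against posterior difference from Wt it gave 2 to 3 for both, 2 to 4 for E1C8Δ/Δ, 0 to 2 for E1C5Δ/Δ, and, inside proximal cells, 1 to 2 for E1C8Δ/Δ, 0 to 2 for both and 3 to 4 for Wt itself. For the chondrogenic difference of E1C5Δ/Δ from Wt it gave 0 to 4 (1 reported). The count of 2 to 4 fell below 4 because Meis1 and Meis2 were lost, and Irx3 and Irx5 remained.

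DESeq2 called 2 members in mesenchyme for both mutants and 1 for E1C5Δ/Δ, 4 in middle E1C8Δ/Δ against Wt, 4 in posterior, 2 in posterior E1C5Δ/Δ, 2 in posterior proximal, and 0 for the distal against proximal difference of both mutants. Library totals gave 0 in middle and 0 in posterior proximal E1C8Δ/Δ cells. Without a filter on low counts, 1 was called in E1C5Δ/Δ mesenchyme, 4 in middle E1C8Δ/Δ against Wt, 4 in distal cells, 2 in posterior E1C5Δ/Δ cells, 5 for the chondrogenic difference of E1C5Δ/Δ, 6 in distal against middle Wt, 2 in posterior proximal cells, 5, 5 and 4 for the distal against proximal difference of both mutants, E1C8Δ/Δ and E1C5Δ/Δ, and 4, 3 and 3 for the anterior against posterior difference of both, E1C5Δ/Δ and proximal E1C8Δ/Δ cells. With doublets kept, the counts were 1 in E1C5Δ/Δ mesenchyme, 0 in middle E1C8Δ/Δ against Wt, 0 against E1C5Δ/Δ, and 0 and 1 for the distal against proximal difference of both and E1C8Δ/Δ. Gates at 5000 UMIs gave 0 in proximal E1C8Δ/Δ against E1C5Δ/Δ, 1 and 1 in the 2 middle comparisons of E1C8Δ/Δ, 0 and 0 for the distal against proximal difference of both and E1C8Δ/Δ, 1 and 2 for the anterior against posterior one, and 2 for the chondrogenic difference of E1C5Δ/Δ. With a term for sex, 0 remained in proximal E1C8Δ/Δ against E1C5Δ/Δ and 0 in middle, posterior and posterior proximal E1C8Δ/Δ against Wt. A sex by gate term gave 0 and 0 for the distal against proximal difference, and 2 for the anterior against posterior difference of E1C8Δ/Δ, in all mesenchyme and in proximal cells, and 1 for both mutants in proximal cells. Position gates with other distal genes gave 1 for E1C8Δ/Δ, where the Meis1 difference turned to -0.033. Pbx2 between genotypes in mesenchyme, near 0 throughout, turned to -0.013 with library totals, to -0.00088 with doublets kept, to -0.025 without Wt replicate 1 and to -0.015 without Wt replicate 2, and was 0.076 without Wt replicate 3. Where a count changed, the cause was not tested.

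Same-numbered libraries correlated at r = -0.14 to 0.08 in their deviations from the group means. Differently numbered libraries of different genotypes gave r = -0.15 to 0.25. These values cannot decide whether same-numbered libraries were prepared together, since each deviation is taken from a mean of few libraries. The paper describes repeated cell isolation, RNA preparation and sequencing with limb buds of each genotype. It does not state whether the replicate numbers follow these rounds. With the number as a replicate block, 0 of 7 were called in proximal and 1 in middle E1C8Δ/Δ against E1C5Δ/Δ, 0 in middle and posterior proximal E1C8Δ/Δ against Wt, and 2 in posterior cells as before.

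With library totals in place of TMM, the calls over all genes changed from 568 higher and 906 lower to 463 and 486 in E1C8Δ/Δ mesenchyme, and from 599 and 921 to 520 and 485 in posterior cells. For E1C8Δ/Δ against E1C5Δ/Δ they changed from 437 and 546 to 570 and 243 in proximal cells and from 599 and 757 to 673 and 364 in middle cells. For the distal against proximal difference they changed from 134 and 461 to 158 and 277 for both mutants, from 71 and 332 to 88 and 201 for E1C8Δ/Δ, and from 121 and 245 to 155 and 179 for E1C5Δ/Δ. Each group held 3 embryos, and sex was unevenly spread. Many genotype calls of single members changed between alternatives. Those of Irx3 and Irx5 in the anterior against posterior difference of E1C8Δ/Δ from Wt held in 15 of 15. Meis3 is limited by depth.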

Other observations

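Other genes of the proximal and anterior program were also measured between the sides of Wt mesenchyme. Of 9 retinoic acid genes tested, 5 were higher in anterior cells, among them the retinoic acid binding protein genes Crabp1 (log2 fold change 0.86) and Crabp2 (0.53), and Cyp26b1 was lower (-0.52), beside 1216 genes called higher (9.34%) and 1710 called lower of 13013. Of 6 proximal transcription factors, Emx2 (2.22) and Gsc were higher in anterior cells and Shox2 (-1.36), Tbx15 (-0.26) and Tbx18 (-0.40) were lower. Of 7 other TALE genes, Irx2 (1.11) was higher and Irx1 (-2.61) and Pknox2 (-0.81) were lower. Irx1 and Irx2 rest on few UMIs, with means of at most 0.385 and 0.690 CPM in the Wt position gates.

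Between genotypes, 3 of 10 retinoic acid genes were called for both mutants against Wt in mesenchyme (edgeR adjusted p under 0.05 over all genes). Crabp1 (log2 fold change 0.42) and Rarb (0.70) were higher, and Cyp26b1 (-0.65) was lower. Aldh1a2, which codes for the enzyme that makes retinoic acid, gave -2.37 (SE 0.58, edgeR adjusted p = 0.060), with 5.10 CPM at most in the proximal gate. None of the other TALE genes or proximal transcription factors was called there. In posterior E1C8Δ/Δ cells, Tgif1 (0.54) and Pbx4 (0.98) were higher than in Wt and Pknox2 (-1.30) was lower.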
